A study of Mus musculus with 4 samples.

Results

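Capillary endothelial nuclei are the nuclei of the endothelial cells (ECs) that line the smallest vessels of the heart, here of the right ventricle (RV). They were chosen by the counts of 19 genes, among barcodes that had 200 genes or more and a mitochondrial share under 10%. A nucleus had to have under 1% of its unique molecular identifiers (UMIs, counted molecules) from Ryr2, a gene of cardiomyocytes (CMs), and at least 4 UMIs summed over the endothelial genes Flt1, Ptprb, Cyyr1, Egfl7 and Ccdc85a. It also had to have 0 UMIs of Vwf, Npr3, Tmem108, Mmrn1 and Reln, which mark larger vessels, endocardium and lymphatics, at most 1 UMI of the arterial genes Gja5, Gja4, Sox17, Hey1 and Dll4, and at most 1 UMI of Pdgfra, Pdgfrb and Mrc1, which mark fibroblasts, mural cells and macrophages. This rule chose 8909 of the 48428 nuclei kept, from 53090 barcodes. Per library there were 3171, 3273, 1089 and 1376 capillary nuclei for sham 1, sham 2, RVVO 1 and RVVO 2, and every list of 4 values below keeps this order. Another 4461 nuclei met the endothelial, Ryr2 and mesenchymal limits but failed the limit on the arterial genes or on the Vwf group, and are called other endothelial nuclei.

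The nuclei came from frozen RVs of wild-type C57/BL6J mice at postnatal day 21 and were counted with 10x 3′ chemistry. RVVO, volume overload of the RV, was made at postnatal day 7 by a puncture between the abdominal aorta and the inferior vena cava, and sham mice had the same operation without the puncture. There were 2 libraries per group, and neither the number of mice behind a library nor the sex of any 1 library is given in the sources used here. Newborns of both sexes entered the study, per its methods. The question put to these nuclei was which genes of the capillary endothelium differed between RVVO and sham hearts.

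Several features of the libraries bear on every result. Xist, the RNA that silences an X chromosome in female cells, had 1186, 1197, 0 and 0.965 CPM in capillary nuclei, the UMIs of a gene scaled to the same total of UMIs in every library. Uty, a gene of chromosome Y, had 0, 0.148, 235 and 244 CPM. The capillary nuclei of the sham libraries were thus female and those of the RVVO libraries male. Sex and surgery cannot be told apart below. The capillary nuclei had 7512569, 6766192, 3266928 and 4143269 UMIs in all, with medians of 1981, 1765, 2685 and 2484.5 UMIs and 1237, 1148, 1537 and 1512 genes per nucleus. Both RVVO libraries were deeper per capillary nucleus and had fewer capillary nuclei, so their sums were shallower. Between 28 and 70 barcodes were shared by a pair of libraries, and between 0 and 5 of these were capillary in both. Nuclei of 1 library are not replicates, and nothing in the sources says that the libraries of a group are separate animals, so every p-value measures only the spread between 2 libraries per group.

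Heart capillaries supply working muscle that burns mostly fatty acids, and their endothelium is specialised for moving these fuels. Lipoprotein lipase is held on the capillary wall by GPIHBP1 and frees fatty acids, CD36 takes them up, FABP4 carries them through the cell, and PPARγ, MEOX2 and TCF15 are transcription factors that maintain this programme. Endothelial cells also sense virus-like RNA and interferons, and interferon receptors act through transcription factors that include STAT2 and IRF9 to raise a large set of interferon-stimulated genes.

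The label was checked on genes that the rule did not use. Rgcc, a cell cycle regulator used as a marker of heart capillaries, had 454, 327, 439 and 266 CPM in capillary nuclei. In other endothelial nuclei it had 307, 210.3, 233 and 151 CPM, and in nuclei with at least 1% Ryr2, called cardiomyocyte nuclei here, 37.6, 15.8, 29.98 and 19.5 CPM. Rgcc was thus highest in capillary nuclei within each of the 4 libraries. Car4, the carbonic anhydrase of the capillary surface, had 156, 129, 151 and 109.8 CPM against 102, 77.0, 76.0 and 70.4 in other endothelial nuclei. Cd36 had 3054, 2622, 3094 and 3026 CPM against 2359, 1881, 1981 and 2072, and Fabp4 had 2080, 1583, 1443 and 1997 CPM against 1845, 1357, 1018 and 1688. For all of these the capillary nuclei were higher in every library, though the ranges over the libraries overlapped between the classes for Rgcc and Fabp4. Summed over 10 capillary markers outside the rule, among them Gpihbp1, Aqp1, Kdr, Tcf15, Meox2 and Timp4, the level was 7314, 6250.3, 6807 and 6689 CPM in capillary and 5871, 4794, 4449 and 4883 CPM in other endothelial nuclei. Since the nuclei were chosen by their counts, these values describe them and no test was made.

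The genes that most set capillary nuclei apart from all other nuclei were ranked by the lowest of the 4 per-library log2 ratios, among 3375 genes found in at least 10% of capillary nuclei of every library and not used by the rule. Mcf2l, a guanine nucleotide exchange factor, led with 785, 791, 933 and 675 CPM against 175, 112, 153 and 101 CPM in the rest. Ablim3, an actin-binding protein, and Slc26a10 and Zfp366 followed, with lowest ratios of 2.15, 2.12 and 2.11 on the log2 scale. The next genes included Timp4, a metalloproteinase inhibitor, Car4, Rgcc, Adgrl4, an adhesion receptor of angiogenic endothelium, Pparg, Tbx3, a T-box transcription factor, and the nucleoside transporter Slc28a2. The lowest ratio of the gene ranked 20, Clec1a, was 1.97. Several of these genes stood above other endothelial nuclei as well, but by less. The log2 ratio to other endothelial nuclei was between 0.66 and 0.86 for Slc28a2, between 0.61 and 0.98 for Car4 and between 0.60 and 0.85 for Ablim3.

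**Figure D1:**
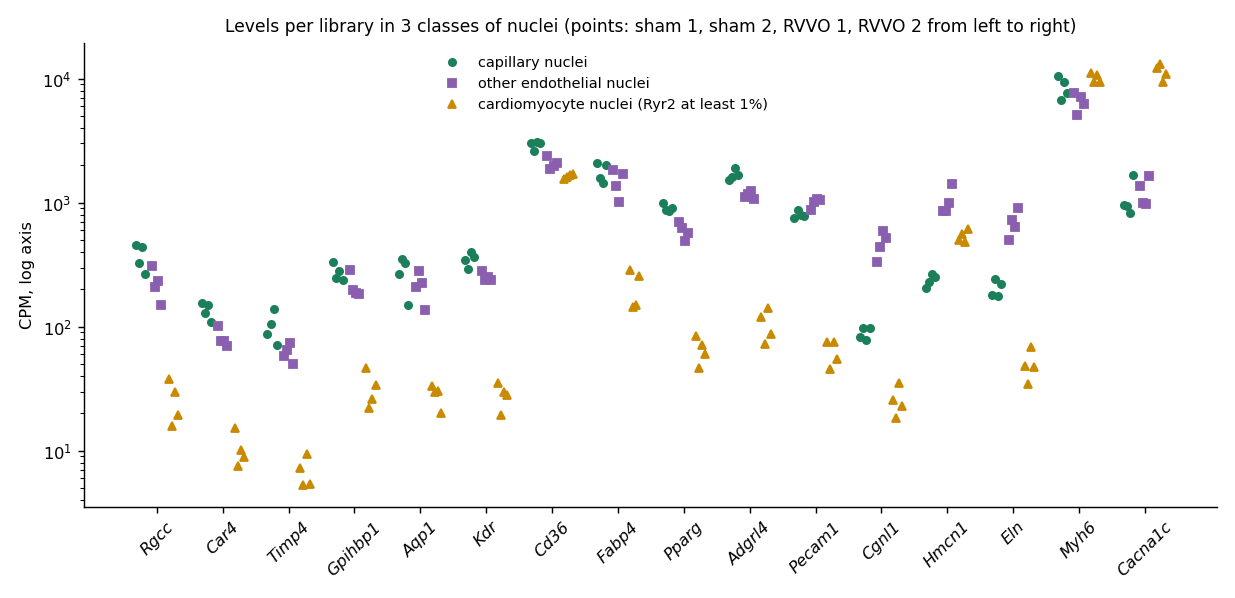
CPM on a log axis of 16 genes in capillary nuclei, other endothelial nuclei and cardiomyocyte nuclei, with 1 point per library. Rgcc, Car4 and Timp4 lie highest in capillary nuclei, Cgnl1, Hmcn1 and Eln lie highest in other endothelial nuclei, and Myh6 has 10570 CPM in the capillary nuclei of sham 1, within the range of the cardiomyocyte nuclei.

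Among the genes furthest below other endothelial nuclei were Cgnl1, Prkg1, Hmcn1, Meis2, Pde3a, Setbp1, Eln, Tmem2 and Rps6ka2. Cgnl1, of the junction protein paracingulin, had 82.5, 96.8, 77.7 and 97.99 CPM in capillary nuclei against 331, 439, 594 and 523. Eln, the elastin of vessel walls, had 181, 243, 178 and 222 CPM against 496, 724, 633 and 909.5. For both of these genes every capillary value lay below every value in other endothelial nuclei. The same held for Plvap, a protein of endothelial diaphragms that was not used by the rule, with 2.26, 2.51, 2.14 and 2.65 CPM against 18.9, 29.5, 26.3 and 41.5. Arterial, venous, endocardial and lymphatic marker lists summed to 403, 409, 354 and 347 CPM, 235, 293, 233 and 275 CPM, 108, 133, 103 and 138 CPM, and 82.4, 86.6, 94.6 and 88.6 CPM. Of these lists the rule itself limited 5 of 10 arterial, 1 of 6 venous, 2 of 7 endocardial and 2 of 7 lymphatic genes, so their sums are in part set by it. Vwf, Npr3, Tmem108, Mmrn1 and Reln were at 0 by the rule. Ephb4 carried most of the venous sum, with 169, 210.5, 159 and 184 CPM, and Efnb2 was the most abundant of the arterial list, with 211, 203, 199 and 186 CPM.

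Transcripts of muscle were present in nearly all capillary nuclei. Myh6, the main cardiac myosin heavy chain, had 10570, 6696, 9346 and 7649 CPM in capillary nuclei. After thinning to 1000 UMIs, it was found in 99.9%, 99.3%, 99.8% and 99.4% of the capillary nuclei that had at least 1000. In cardiomyocyte nuclei it had 11116, 9315, 10779.5 and 9433 CPM. Summed over 10 CM markers, none at 0 and 1 of them, Ryr2, used by the rule for both classes, the level was 30930, 20835, 28869 and 26484 CPM in capillary nuclei and 60974, 61868, 60425 and 57486 CPM in cardiomyocyte nuclei. The most abundant of these markers was Myh6 in capillary nuclei and Ttn, of the giant sarcomere protein titin, in cardiomyocyte nuclei. Cacna1c, a calcium channel gene also of muscle, differed more, with 959.7, 937, 828 and 1668 CPM in capillary nuclei against 12253, 13169, 9369 and 10909.5 in cardiomyocyte nuclei. The 2 groups overlapped in the summed CM markers of capillary nuclei, with sham 1 highest and sham 2 lowest. Erythroid markers, led by the globin gene Hbb-bs, summed to 887, 1241, 3757 and 1086 CPM, high in RVVO 1 only. Fibroblast markers, led by Gsn, summed to 917, 1184, 1332 and 1713 CPM, macrophage markers, led by F13a1, to 135, 143, 176 and 220 CPM, pericyte markers, led by Rgs5, to 904, 544, 517 and 633 CPM, and lymphocyte markers, led by Skap1, to 12.6, 17.9, 11.02 and 21.2 CPM. No marker of fibroblasts (8 genes), macrophages (8 genes), pericytes (7 genes) or erythroid cells (5 genes) was at 0 in any library. The fibroblast, macrophage and pericyte lists each held 1 gene that the rule limited. Fibroblast and macrophage markers were higher in both RVVO libraries than in both sham libraries. The part of these transcripts in the comparisons below was not tested.

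Nuclei at the edge of the limit on the 5 endothelial genes differed from those deep inside it. With exactly 4 UMIs of the 5 endothelial genes, just inside, 237, 223, 30 and 32 nuclei had 2139, 1691, 1783 and 1665 CPM of Cd36 and 15965, 9745, 12974 and 8392 CPM of Myh6. With exactly 3, just outside, 298, 256, 46 and 54 nuclei had 1931, 1778, 1204 and 1454 CPM of Cd36. With 12 or more, 1655, 1741, 825 and 949 nuclei had 3251, 2827, 3258 and 3273 CPM of Cd36 and 8957, 5846, 8653 and 7313 CPM of Myh6. Nuclei with exactly 4 thus held less Cd36 and more Myh6 in every library. They were also shallower, with medians of 1193, 1012, 1469 and 2364.5 UMIs against 2588, 2257, 2915 and 2604. With 2 arterial UMIs, just outside, 207, 191, 80 and 93 nuclei had 3303, 2897, 3345 and 3378 CPM of Cd36. With 1 UMI of the Vwf group, also just outside, 361, 370, 287 and 338 nuclei had 2732, 2233, 2718 and 2927 CPM. Both sets belong to the other endothelial nuclei, so that class was in part capillary-like in Cd36.

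Among capillary nuclei of 1 library, the genes of largest spread were ranked by the lowest over the libraries of the variance of Pearson residuals, which is near 1 for a gene whose counts vary only by sampling. Cacna1c led with a lowest variance of 8.59, followed by Kirrel3, a cell adhesion molecule, with 7.90, and Gpc6, a proteoglycan, with 6.64. Next came Prkg1, Malat1, Ttn, Pcdh9, Dmd, Ctnna3, Celf2, Csmd1, Kcnd2, Fhl2, Rora and Lsamp. Of these 15 genes, Cacna1c, Ttn, Dmd, Ctnna3, Kcnd2 and Fhl2 are known as genes of heart muscle, and each was far higher in cardiomyocyte nuclei, such as 9866, 9536, 10757 and 10761 CPM of Dmd, the dystrophin gene, against 1031, 1077, 1363 and 1745 in capillary nuclei. Kirrel3 was different, with 97.2, 134, 204 and 93.9 CPM in capillary, 164, 189, 341 and 107 CPM in other endothelial and 25.01, 20.8, 36.9 and 14.0 CPM in cardiomyocyte nuclei.

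Capillary nuclei made up a smaller share of the RVVO libraries. They were 24.4%, 22.5%, 13.2% and 10.9% of the nuclei kept, a mean of 23.4% ± 1.38 for sham and 12.05% ± 1.64 for RVVO (SD, n = 2), which differ by -11.4 points of percent. Each RVVO library was lower than each sham library, and the difference was larger than either SD. In the exact two-sided permutation test p was 0.3333, the smallest value that the 6 arrangements of 2 against 2 libraries can give, so no share can pass 0.05. Cardiomyocyte nuclei moved the other way, with 21.6%, 22.6%, 37.3% and 33.4%, and other endothelial nuclei made up 9.35%, 7.70%, 11.2% and 9.52%. Shares of a library add up to 100%, so fewer capillary nuclei and more nuclei of other classes cannot be told apart.

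The capillary share among endothelial nuclei moved with the depth at which the rule was applied. It was 72.3%, 74.5%, 54.2% and 53.4%, a difference of -19.6 points. The rule uses absolute UMI counts, and the capillary nuclei of both RVVO libraries were deeper. Other endothelial nuclei had medians of 3047.5, 2606.5, 3760 and 3033 UMIs, so there RVVO 2 was not deeper than sham 1. In an alternative chosen after seeing the data, barcodes with at least 1000 UMIs were thinned to 1000 before the rule and shallower ones left out. The shares were then 87.6%, 87.4%, 82.7% and 79.0%, a difference of -6.61 points. Those left out included 236, 459, 17 and 0 of the capillary nuclei, so this mixes matched depth with a loss mostly from the sham libraries. Both RVVO libraries stayed below both sham libraries. As a share of all nuclei the difference moved little with thinning and the same loss of shallow barcodes, to -10.1 points.

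**Figure D2:**
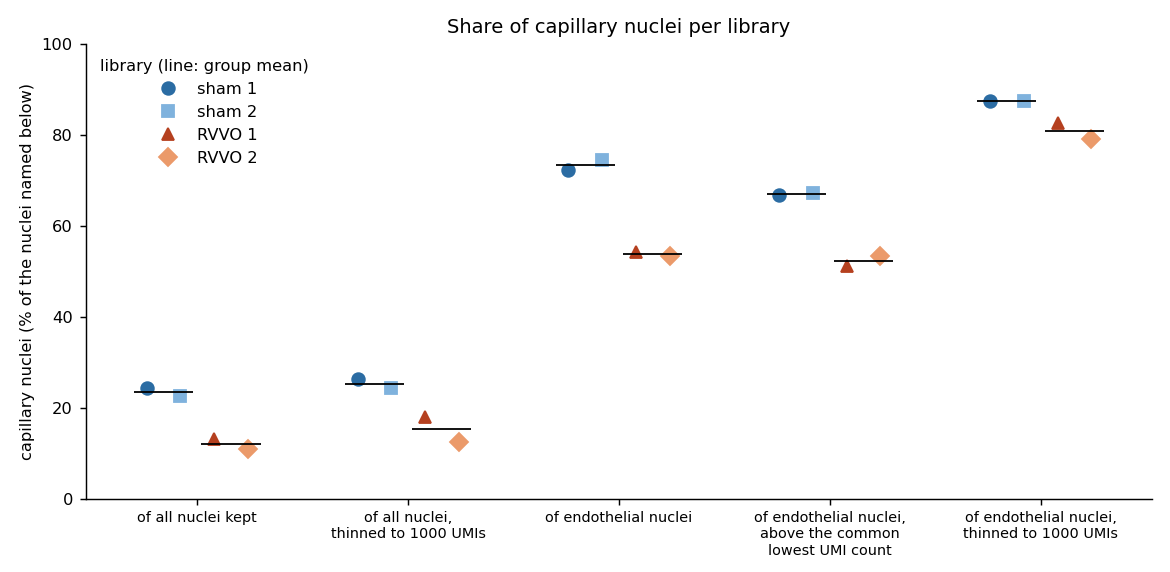
Capillary nuclei of each library as a percentage of all nuclei or of endothelial nuclei, with and without matching depth, with lines at the group means. The RVVO points lie below the sham points in all 5 columns. The distance among endothelial nuclei shrinks from -19.6 to -6.61 points when barcodes are thinned to 1000 UMIs and shallower ones are left out.

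Few genes passed the test between RVVO and sham capillary nuclei, and of the 10 on autosomes 9 were lower after RVVO, 5 of them genes of the interferon list described below. Counts were summed per library and 13231 genes were tested with edgeR. At a Benjamini-Hochberg adjusted p under 0.05, 16 genes were called, 0.121% of those tested, with 5 higher (0.0378%) and 11 lower (0.0831%) in the RVVO group. An unadjusted p under 0.05 was found for 871 genes. The median log2 fold change over all genes tested was -0.01. Of the 16 genes, 6 lie on the X or Y chromosome, of which the X-linked Xist and Tsix were lower and the Y-linked Uty, Ddx3y, Kdm5d and Eif2s3y higher. Xist and Tsix overlap on opposite strands, and whether counting used strand is not stated in the sources. Eif2s3y and Kdm5d had 0 UMIs in both sham libraries and 322 and 445, and 170 and 167 UMIs, in RVVO 1 and RVVO 2.

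The remaining 10 called genes were Snx17, higher, and Ifit1, Irf7, Herc6, Bst2, Oasl2, Eif2ak2, Rnf213, Uba7 and Xaf1, lower. With the p-values adjusted over the 12820 genes not on X or Y, 3 of these 10 were called. Without RVVO 1, 1 of the 10 was called and 0 of the 9 lower genes, and without RVVO 2 none of the 10 was, while all 10 were called without sham 1 or without sham 2. The direction of all 10 was the same in each of these fits. With at least 3 endothelial UMIs 4 of the 10 were called, and with at least 6 all 10 were. With Ryr2 under 0.5% 4 of the 10 were called, and 5 among barcodes above the lowest UMI count common to the libraries. Over all genes the count was 38 without sham 1, 94 without sham 2, 9 without RVVO 1 and 7 without RVVO 2. In DESeq2 all 10 were called, among 92 genes, 1.07% of the 8614 to which it gave an adjusted p.

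Ifit1, whose protein binds foreign RNA and blocks its translation, had the largest fall among the called autosomal genes. It lies on chr19:34640871-34650009 of GRCm38 and had 65.6, 64.9, 16.5 and 17.1 CPM, from 493, 439, 54 and 71 UMIs. Both RVVO libraries were low and the groups were far apart compared with the spread within each (log2 fold change of RVVO over sham -2.02, standard error SE 0.153, adjusted p = 0.00502 by edgeR). Irf7, on chr7:141262706-141266481, is the transcription factor that amplifies type I interferon, and had 53.4, 40.9, 11.9 and 13.3 CPM (log2 fold change -1.97, SE 0.218, adjusted p = 0.0404 by edgeR). Herc6, the mouse ligase for the ubiquitin-like protein ISG15, on chr6:57581000-57664632, had 736, 607, 205 and 183 CPM (log2 fold change -1.86, SE 0.184, adjusted p = 0.0228 by edgeR). Bst2, the membrane tether of budding viruses, on chr8:71534255-71537456, had 250.1, 210.02, 61.2 and 74.3 CPM (log2 fold change -1.83, SE 0.164, adjusted p = 0.0127 by edgeR). In each of these 4 genes both sham libraries were high, both RVVO libraries were low and the groups did not overlap.

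The other 5 called genes fell by less. Oasl2, a relative of the 2′-5′ oligoadenylate synthetases on chr5:114896936-114912234, had 188, 145, 58.5 and 57.4 CPM and a log2 fold change of -1.59. Eif2ak2, the RNA-activated kinase PKR on chr17:78852564-78882573, had 125, 119.7, 53.6 and 46.1 CPM and a log2 fold change of -1.36. Rnf213, a large ubiquitin ligase on chr11:119393100-119487418, had 603, 516, 228 and 234 CPM and a log2 fold change of -1.34. In all 3 the sham libraries were high and the RVVO libraries low, with no overlap. Uba7, the enzyme that activates ISG15, on chr9:107975505-107984060, had 82.9, 73.0, 31.8 and 35.2 CPM and a log2 fold change of -1.28. Xaf1, a partner of an apoptosis inhibitor on chr11:72301629-72313733, had 127, 121, 57.5 and 64.2 CPM and a log2 fold change of -1.09. Their groups did not overlap either, and the edgeR adjusted p of these 5 genes lay between 0.0404 and 0.0495. Irf7 overlaps Phrf1 on the other strand, whose log2 fold change was -0.09, and Uba7 overlaps Gm20661 on the same strand, with -0.32.

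The interferon list had 22 genes, all tested, of which 5 were called lower and 0 higher by edgeR, where 0.0831% of all genes were called lower. An unadjusted p under 0.05 with a lower level was found for 21 of the 22, against 3.64% of all genes, and with a higher level for 0, against 2.94%, and DESeq2 called 19 of the 22 lower, against 0.952% of those 8614 genes. The count by edgeR was 0 without RVVO 1, 0 without RVVO 2, 8 without sham 1 and 17 without sham 2. In 21 genes each RVVO library was lower than each sham library, against 11.4% of all genes. The median log2 fold change of the list was -1.33, with single genes between -2.16 and 0.22, and it stayed between -1.51 and -1.15 under the alternatives. The list was chosen with earlier results of these data known, so its direction is not independent evidence. Several of its genes, such as the Ifit, Trim30 and Gbp genes, have close paralogs between which counting could split reads.

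By role, the factors that carry the interferon signal had lower values in both RVVO libraries, as the effectors did. Stat2 had 304, 326, 118 and 174 CPM, and Irf9 had 75.5, 85.0, 47.1 and 59.4 CPM. For both the groups did not overlap, and the edgeR adjusted p was 0.102 and 0.253, above the threshold. Of the RNA sensors, Ddx58, which encodes RIG-I, had 149, 148, 91.8 and 89.1 CPM, and Ifih1, which encodes MDA5, had 152, 124, 79.0 and 59.6 CPM. Both were lower in both RVVO libraries, with edgeR adjusted p of 0.134 and 0.179. Isg15 had 44.9, 32.2, 12.2 and 12.3 CPM, Usp18, the protease that removes ISG15, had 67.8, 55.1, 30.6 and 21.5 CPM, and Ifit3 had 47.3, 27.0, 8.88 and 8.69 CPM. The 2 RVVO libraries lay close to each other in Isg15 and Ifit3, while sham 1 stood above sham 2. Gbp7, a guanylate-binding protein, had 586, 477, 138 and 302 CPM, and the RVVO libraries differed from each other by more than the sham libraries did. Ifi27 was the exception, with 24.5, 29.3, 27.2 and 37.9 CPM and overlapping groups.

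**Figure D3:**
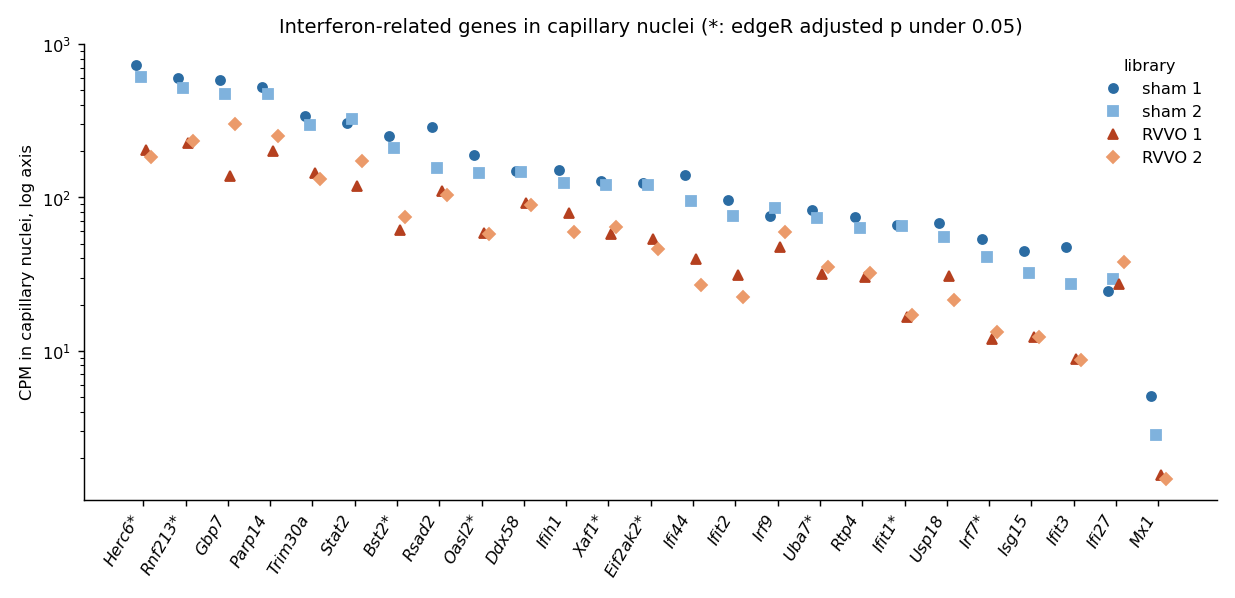
CPM on a log axis of 21 genes of the interferon list and of Herc6, Rnf213, Eif2ak2 and Uba7 in capillary nuclei, with 1 point per library and a star for genes with an edgeR adjusted p under 0.05. Both RVVO points lie below both sham points for every gene shown except Ifi27, where RVVO 2 is highest at 37.9 CPM.

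The promoters of genes that were low together were read from RefSeq (GRCm38.p6), 250 bases before to 50 after each start site, and searched on both strands for GAAANNGAAA, the core of the interferon-stimulated response element, which interferon regulatory factors bind. Counted by gene, this string was found in 3.99% of the 27025 genes with a promoter in the table. Of the 9 autosomal genes called lower, 3 had it, namely Ifit1, Bst2 and Eif2ak2, and so did 10 of the 16 genes of the interferon list with a promoter in the table. None was found in the promoters of Irf7, Herc6, Oasl2, Rnf213, Uba7 and Xaf1, which says only that these letters are not in this window. The stretches from 160 to 41 bases before the start are shown for Ifit1 and Bst2, called lower, and for Ifit3 and Isg15, which missed the threshold, because they hold 2 or 3 matches each. The capitals mark the fixed letters of each match, on the strand of the gene. The positions are chr19:34640729-34640848 (plus strand) for Ifit1, chr8:71537513-71537632 (minus strand) for Bst2, chr19:34583369-34583488 (plus strand) for Ifit3 and chr4:156200859-156200978 (minus strand) for Isg15, and TTTCNNTTTC is the same string read on the other strand.
Ifit1: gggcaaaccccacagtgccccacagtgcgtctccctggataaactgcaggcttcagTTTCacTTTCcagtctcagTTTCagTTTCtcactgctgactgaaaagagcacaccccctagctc
Bst2: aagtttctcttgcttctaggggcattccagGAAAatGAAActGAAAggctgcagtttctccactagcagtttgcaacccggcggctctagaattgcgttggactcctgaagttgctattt
Ifit3: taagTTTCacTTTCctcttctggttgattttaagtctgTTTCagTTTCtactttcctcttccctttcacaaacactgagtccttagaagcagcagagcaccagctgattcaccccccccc
Isg15: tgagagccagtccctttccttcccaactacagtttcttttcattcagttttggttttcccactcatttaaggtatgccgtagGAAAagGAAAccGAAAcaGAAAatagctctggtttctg

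The distribution over single capillary nuclei was also described. After each nucleus was thinned to 1000 UMIs, the mean number of UMIs of the 22 genes was 4.03, 3.44, 1.42 and 1.83 per nucleus, over 2935, 2814, 1072 and 1376 nuclei. The median nucleus had 4, 3, 1 and 1 of these UMIs. No such UMI was seen in 4.16%, 8.35%, 32.9% and 22.8% of nuclei, and the upper quartile was 5, 5, 2 and 3. Both RVVO libraries thus had a low median and more nuclei at 0, and their distributions overlapped those of the sham libraries. The variance divided by the mean was 1.68, 2.12, 1.998 and 1.53, with no order by group. Nuclei of each library were also divided by their UMIs into 3 sets of equal size, a choice made after seeing the data. The summed level of the list was 3682, 3229, 1303 and 1880.0 CPM in the set of lowest UMIs, 4187, 3594, 1528 and 1818 CPM in the middle set and 4076, 3333, 1426 and 1662 CPM in the set of highest UMIs. In every set the RVVO libraries were the 2 lowest.

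**Figure D4:**
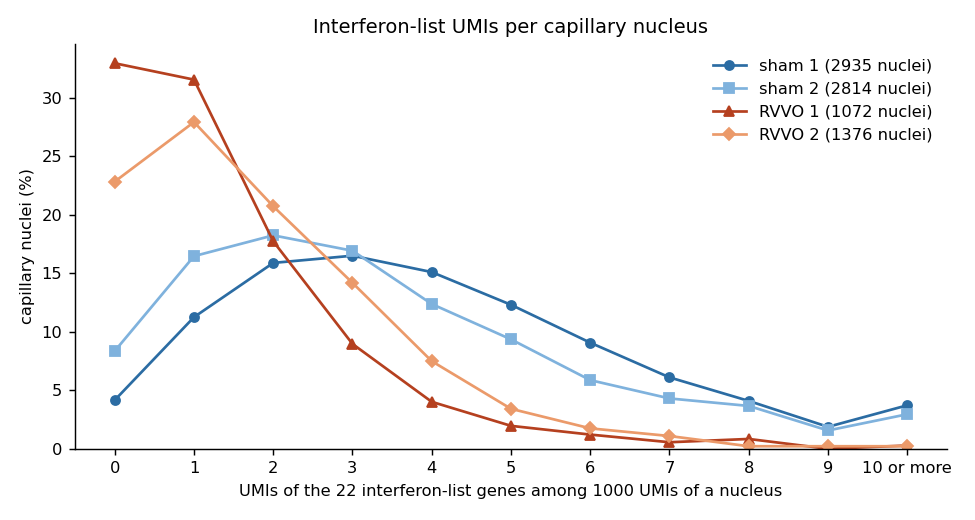
Percentage of capillary nuclei of each library by the number of UMIs of the 22 interferon-list genes, after each nucleus was thinned to 1000 UMIs. The sham curves peak at 2 to 3 UMIs and the RVVO curves at 0 to 1, with 32.9% and 22.8% of RVVO nuclei and 4.16% and 8.35% of sham nuclei at 0.

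The interferon list was low after RVVO in the other classes of nuclei too. Its summed level was 4040, 3391, 1435 and 1749 CPM in capillary, 3708, 2901, 1078 and 1573 CPM in other endothelial and 1203, 516, 265 and 424 CPM in cardiomyocyte nuclei. Levels were highest in capillary nuclei in each of the 4 libraries, and both RVVO libraries were lowest in each class. In other endothelial nuclei 8 of 21 tested genes of the list were called lower by edgeR, where 0.138% of genes were called lower, and the median log2 fold change was -1.41. Of the 9 autosomal genes called lower in capillary nuclei, 7 were also called lower there, and Uba7 and Xaf1 were not. In cardiomyocyte nuclei edgeR called 0 of 22 genes of the list, where 0.0454% of genes were called in either direction and 0.013% lower, with a median of -1.44 and an unadjusted p under 0.05 with a lower level for 18. The comparisons in different classes share the same 4 libraries and are not independent. The change was compared between capillary and other endothelial nuclei with an interaction term and the library as a block. By edgeR, 0 of 13463 genes differed at an adjusted p under 0.05, and 677 (5.03%) had an unadjusted p under 0.05. For Ifit1 the difference between the classes was 0.24 (standard error 0.208, edgeR adjusted p = 0.994), and the median over the interferon list was 0.11. Without RVVO 1 or without RVVO 2 the count was 63 and 59 genes, and without sham 2 it was 3. A p above the threshold does not show that the classes responded alike.

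Genes of immune adhesion and antigen presentation did not pass the test by edgeR. Of 20 genes on the list 19 were tested, 0 were called by edgeR, 6 had an unadjusted p under 0.05 with a lower level and 0 with a higher one, against 3.64% and 2.94% of all genes, and DESeq2 called Tapbp and Ly6a lower, against 0.952% of genes. The median log2 fold change was -0.19, and each RVVO library was lower than each sham library for 8 genes and above them for 1, where 11.4% and 22.4% of all genes did so. Tapbp, the tapasin that loads peptides on MHC class I, had 187, 160.1, 94.9 and 95.3 CPM (log2 fold change -0.94, adjusted p = 0.123 by edgeR). B2m, the light chain of MHC class I, had 567, 516, 279 and 450.1 CPM, H2-D1, a heavy chain, had 489.8, 471, 302 and 414 CPM, and Ly6a, an interferon-responsive surface protein, had 248.9, 158, 87.2 and 120.2 CPM. In each of these genes RVVO 1 was the lowest library and the groups did not overlap. The adhesion molecules of inflamed endothelium did not separate, with 35.9, 55.6, 30.9 and 58.6 CPM of Icam1 and 17.3, 21.9, 15.9 and 32.6 CPM of Vcam1. Sele was nearly absent, with 0.133, 1.33, 0 and 1.45 CPM.

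Snx17 was the only autosomal gene called higher in the main edgeR fit. DESeq2 called 10 genes higher, those on X and Y included. It encodes a sorting nexin that recycles receptors and integrins from endosomes, on chr5:31193227-31199143, and had 19.97, 15.4, 89.7 and 119 CPM, from 150, 104, 293 and 493 UMIs. Both RVVO libraries were high (log2 fold change 2.49, SE 0.198, adjusted p = 0.00629 by edgeR). Its locus also holds parts of Eif2b4 and Zfp513 on the opposite strand, whose log2 fold changes were 0.12 and -0.19. The log2 fold change of Snx17 was 2.67 in other endothelial nuclei and 3.42 in cardiomyocyte nuclei, with edgeR adjusted p of 0.00758 and 0.00642. Other genes with the lowest p among those higher missed the threshold, among them Tecrl, a heart muscle gene linked to inherited arrhythmia, with 39.9, 33.8, 78.4 and 68.1 CPM, and the adrenergic receptor gene Adra1a, with 12.9, 12.4, 23.6 and 30.7 CPM. Further genes were Pde4d, a cyclic AMP phosphodiesterase, with 556, 498, 884 and 1111 CPM, the mast cell protease Cpa3, with 1.20, 1.63, 5.20 and 7.00 CPM, Adam23, Kbtbd12 and the collagen-modifying P3h2. Of these, Tecrl, Adra1a, Pde4d and Kbtbd12 were far higher in cardiomyocyte nuclei, with 284, 240.1, 431 and 330.1 CPM of Tecrl, 149, 151, 217 and 183 CPM of Adra1a, and 5155, 4381, 6308 and 5691 CPM of Pde4d. The share of cardiomyocyte nuclei was also higher in both RVVO libraries, and its part in these values was not tested. The edgeR adjusted p of these 7 genes lay between 0.174 and 0.228, and none was called in the main fit. Among the alternatives Tecrl was called in 3, Pde4d in 2, Adra1a in 1 and the rest in none. Over them the log2 fold change lay between 0.65 and 1.08 for Tecrl, 0.37 and 0.97 for Pde4d, and 0.12 and 1.16 for Adra1a.

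No gene of fuel uptake passed the test. Of 14 genes on the fatty acid list 13 were tested, and 0 were called by edgeR or DESeq2. Only 1 of the 13, Tcf15, was lower at an unadjusted p under 0.05, against 3.64% of all genes. The median log2 fold change was -0.15. Each RVVO library was lower than each sham library for 2 of the 13 and higher for 0, where 11.4% and 22.4% of all genes did so. Cd36 had 3054, 2622, 3094 and 3026 CPM, with overlapping groups (log2 fold change 0.04, SE 0.201). Lpl, of lipoprotein lipase, had 1226, 942, 1413 and 1031 CPM, and Gpihbp1, its anchor, had 329, 248, 283 and 237 CPM. Both overlapped between the groups. Of the regulators, Pparg had 989, 879, 850.3 and 908 CPM and Meox2 had 487, 542, 494 and 430.3 CPM, while Tcf15 had 51.0, 50.5, 41.6 and 35.0 CPM, lower in both RVVO libraries (log2 fold change -0.47, standard error 0.164, edgeR adjusted p = 0.647). Of 16 genes of solute and water transport, 0 were called by edgeR or DESeq2, with a median of -0.03, and Slco2a1 and Slc16a1 were higher and Aqp7 lower at an unadjusted p under 0.05, where 2.94% of all genes were higher and 3.64% lower. Each RVVO library was higher than each sham library for 5 of the 16 and lower for 1. Slco2a1, a prostaglandin transporter, had 22.6, 30.4, 35.2 and 48.8 CPM (log2 fold change 0.60, edgeR adjusted p = 0.613). The monocarboxylate transporter gene Slc16a1 had 34.9, 33.0, 46.5 and 48.0 CPM, and Aqp1, the water channel of capillaries, was lowest in RVVO 2, with 268, 353, 325 and 149 CPM.

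No signalling gene of vessel growth and stability was called. Over the 14 genes of VEGF receptors and signalling, the 10 tested of the angiopoietin and Tie system, the 15 of Notch and the 21 of BMP and TGF-β, edgeR and DESeq2 called 0, and the medians were 0.04, -0.06, -0.16 and -0.05. At an unadjusted p under 0.05 the counts were 0, 0, 1 and 1, with Hes1 and Id3 lower, against 3.64% of all genes. Each RVVO library was lower than each sham library for 0, 1, 5 and 5 genes, against 11.4% of all genes, and higher for 1, 0, 1 and 4, against 22.4%. Kdr, the main signalling receptor for VEGF-A, had 347, 289.8, 399 and 368 CPM, higher in both RVVO libraries by a log2 of 0.20 (standard error 0.168, edgeR adjusted p = 0.975). Nrp1, a co-receptor, had 936, 1005, 1144 and 938 CPM, and Tek, the angiopoietin receptor, had 465, 573, 499.6 and 489 CPM, and neither separated the groups. Among Notch genes, Hes1, a target, had 127, 105, 96.1 and 63.5 CPM (log2 fold change -0.61, edgeR adjusted p = 0.704), and Notch1 had 130.05, 134, 127 and 133 CPM. Id3 and Smad7, targets of BMP signalling, had 194, 162, 143 and 147 CPM and 335, 418, 314 and 295 CPM. The levels of Hes1, Id3 and Smad7 were lower in both RVVO libraries, and the edgeR adjusted p was 0.704, 0.753 and 0.760.

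Transcription factors, flow-responsive genes and the parts of the vessel wall also held 0 called genes. Of 21 endothelial transcription factors tested 1 had an unadjusted p under 0.05 and was lower, near the 3.64% of all genes, with a median of -0.19. This was Klf2, the factor induced by laminar flow, with 263, 236, 186 and 207 CPM (log2 fold change -0.41, SE 0.141, adjusted p = 0.640 by edgeR). Klf4, its relative, had 209, 247, 199 and 199 CPM, and Nos3, the nitric oxide synthase that both factors raise, had 112, 159, 119 and 111 CPM. Klf2 and Klf4 were lower in both RVVO libraries, and Nos3 overlapped. Of 23 genes of flow and vessel tone, 1 was higher and 1 lower at an unadjusted p under 0.05, near the 2.94% and 3.64% of all genes, with a median of -0.08, the lower one being Klf2 and the higher one Tfpi, an inhibitor of coagulation, with 32.3, 31.2, 41.9 and 69.0 CPM (log2 fold change 0.74, edgeR adjusted p = 0.474).

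Junction genes, 19 tested with a median of -0.13, had 3 lower at an unadjusted p under 0.05, against 3.64% of all genes. Cldn5, the claudin of endothelial tight junctions, had 117, 118, 55.1 and 102 CPM, so RVVO 1 stood apart from RVVO 2. Itga1, a collagen receptor subunit, had 859, 748, 575 and 551 CPM and Icam2 had 91.4, 63.3, 53.9 and 56.0 CPM, both lower in both RVVO libraries, with edgeR adjusted p of 0.474 and 0.689. Cdh5, the cadherin of endothelial junctions, had 337, 334, 314 and 300.005 CPM. The 15 basement membrane genes had a median of -0.09 and 0 with an unadjusted p under 0.05, and Col4a1 had 904, 718, 813 and 640.1 CPM. EdgeR and DESeq2 called 0 genes of the lists of transcription factors, flow, junctions and basement membrane.

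Sprouting and immediate early genes held 0 genes called by edgeR. Of 17 sprouting genes tested the median was 0.02, with 1 lower and 1 higher at an unadjusted p under 0.05, near the 3.64% and 2.94% of all genes. Pfkfb3, a glycolytic enzyme of sprouting endothelium, had 117, 80.4, 36.7 and 51.2 CPM (log2 fold change -1.24, SE 0.235, adjusted p = 0.176 by edgeR), and DESeq2 called it lower. Apln, a tip cell peptide, had 6.66, 3.84, 2.45 and 2.90 CPM. Egr1, an immediate early factor, had 4.53, 5.47, 9.49 and 48.8 CPM, so its log2 fold change of 2.49 rested mostly on RVVO 2 (edgeR adjusted p = 0.366). Of 13 immediate early genes 0 were called by either tool, with a median of -0.16. At an unadjusted p under 0.05, 1 of the 13 was higher, against 2.94% of all genes. Fos was near the limit of detection, with 1.46, 3.10, 2.75 and 5.07 CPM. Over the 13 lists other than the interferon and immune lists and the markers, 204 different genes were tested, and edgeR called 0 while 14 had an unadjusted p under 0.05, against 6.58% of all genes. DESeq2 called 1, Pfkfb3, against 1.07% of the 8614 genes to which it gave an adjusted p. Of the 204 genes 25 were higher and 33 lower in each RVVO library than in each sham library, where 22.4% and 11.4% of all genes were, and their median log2 fold change was -0.09.

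**Figure D5:**
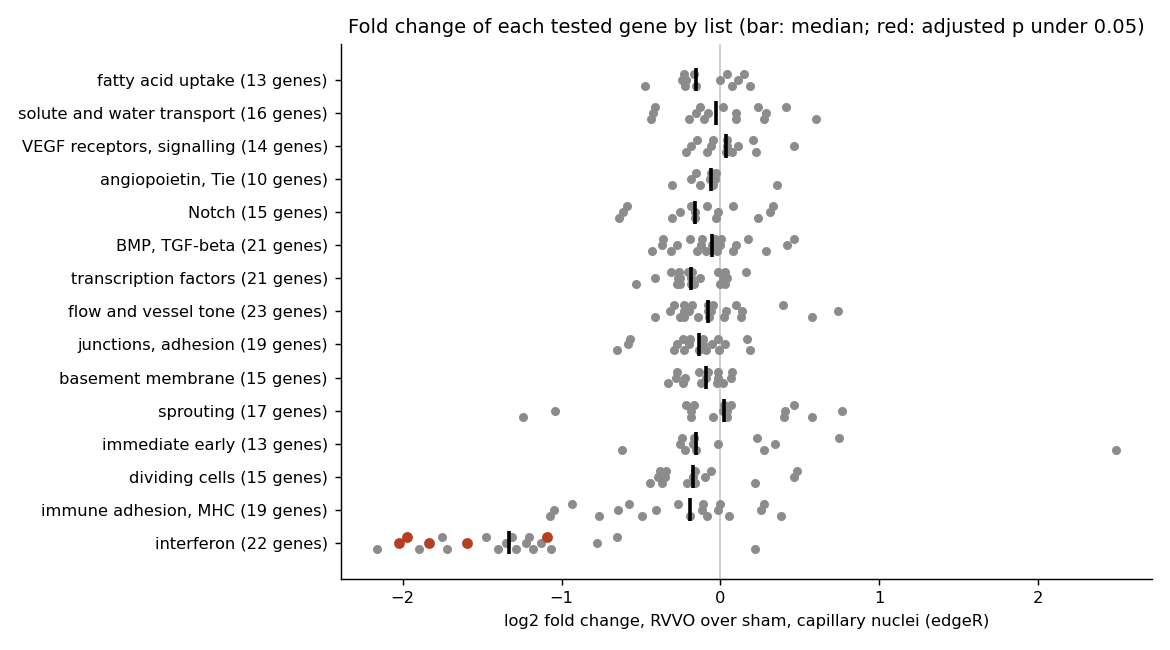
Log2 fold change between RVVO and sham capillary nuclei of each tested gene by list, with a bar at the median and genes with an edgeR adjusted p under 0.05 in red. The interferon list lies to the left with a median of -1.33 and 5 red points, and the medians of the other 14 lists lie between -0.19 and 0.04.

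Transcripts of dividing cells did not separate the groups. Thinning to 1000 UMIs left out 236, 459, 17 and 0 shallower capillary nuclei and kept 2935, 2814, 1072 and 1376. Of those kept, 10.9%, 12.3%, 9.51% and 11.8% had at least 1 UMI of 20 genes of replication and mitosis. The mean was 11.6% ± 0.985 for sham and 10.7% ± 1.65 for RVVO (SD, n = 2). The groups overlapped, with a difference of -0.92 points (exact two-sided permutation test, p = 0.6667). With at least 2 such UMIs the shares were 1.19%, 1.49%, 1.03% and 1.31%. The most abundant gene of the list was Smc4, a condensin subunit, with 71.5, 77.3, 65.8 and 72.4 of the summed 145, 136, 117 and 152 CPM. At the same depth the shares with at least 1 UMI were 10.8%, 12.5%, 12.4% and 14.6% in other endothelial nuclei, 9.98%, 11.1%, 9.59% and 11.7% in all nuclei that were not capillary, and 5.14%, 5.72%, 4.97% and 6.24% in cardiomyocyte nuclei. The capillary shares thus lay near those of the nuclei outside the class as a whole and above those of cardiomyocyte nuclei. Without thinning the capillary shares were 21.3%, 20.5%, 25.1% and 29.2%, higher in both of the deeper RVVO libraries. Mki67, the proliferation antigen, had 6.39, 4.29, 3.98 and 4.83 CPM, Top2a, a topoisomerase of replicating cells, had 6.12, 3.55, 2.45 and 6.52 CPM, and 0 of 15 tested genes of the list had an unadjusted p under 0.05 in edgeR or was called by edgeR or DESeq2.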

How the data were processed

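Single nuclei of the RV were measured in 2 sham and 2 RVVO libraries. The matrices deposited by the authors hold raw UMI counts, whole numbers without scaling. The submitters' processing notes name Cell Ranger 3.0.1, STAR, Seurat 3.0.2 and GRCm38 (mm10), while the matrix headers name Cell Ranger 5.0.0. Whether introns and strand were used is not stated there. Of 27998 identifiers, 27722 were found in GENCODE M21, the source of positions.

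Barcodes were kept and capillary nuclei chosen as the report states. Doublets were kept, and an alternative removed the 0.8% per 1000 barcodes with the highest scores. Counts were summed per library and class and tested with edgeR 4.0.16 in R 4.3.3 (TMM normalization, factors between 0.953 and 1.056, filterByExpr, quasi-likelihood test, Benjamini-Hochberg adjustment), with DESeq2 1.42.0 as an alternative. The SE given with edgeR is not an output of that test. It was derived as the absolute log2 fold change divided by the square root of the F statistic. CPM was not TMM scaled. Shares were compared by an exact permutation test over all 6 arrangements of the libraries, computed with numpy 2.4.6. Other alternatives were RLE or no normalization, other filters, depths and limits of the rule, the replicate number as a block, and each library left out in turn. On simulated data for this comparison, with 200 of 13231 genes changed, 91% of 2-unit and 49% of 1-unit log2 changes were recovered by edgeR, with 10.8% false among 157 calls.

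The members and the gene lists were chosen with earlier results of these data known. Named genes were those of the rule and lists, 20 genes leading against all other nuclei and the 10 highest and 10 lowest against other endothelial nuclei (log2 ratio with a pseudocount of 1 CPM), the 15 of largest spread, and up to 15 called genes in each direction with no overlap between the groups. Where fewer than 5 genes not on X or Y were called in a direction, the 10 of lowest p were taken.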

Additional observations from a re-analysis of the deposited data

How the results depend on the processing

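The capillary share was lower in both RVVO libraries under every alternative tried. Its difference was -8.86 points with at least 6 endothelial UMIs, and among endothelial nuclei -19.6 points, -6.61 points thinned to 1000 UMIs and -14.8 points above the common lowest UMI count, the last 2 chosen after seeing the data. It lay between -12.6 and -10.2 points with 1 library left out. The number of genes called was 92 with DESeq2, 132 without a filter on low counts, 32 after thinning, 30 with marked doublets removed, 10 with at least 3 endothelial UMIs, 10 with Ryr2 under 0.5% and 3 when adjusted over genes not on X or Y. With 1 library left out it lay between 7, without RVVO 2, and 94, without sham 2, where a lone sample is assumed to vary like the other group. The 10 called genes not on X or Y kept their direction in all 19 alternatives, and Ifit1 was called in 17, Xaf1 in 10 and Snx17 in 18 of them. The replicate block gave 69 genes, 13 higher and 56 lower, and 16 lower genes of the interferon list. With 2 libraries per group the deviations mirror each other, so the check of pairing gives a single correlation, 0.162, which cannot settle it. The labels name nothing that same-numbered libraries share, and no pairing is taken from the number. The comparison of the RVVO effect between capillary and other endothelial nuclei gave 28 genes without a filter, 1 with marked doublets removed and between 0 and 63 with 1 library left out. The share of nuclei with transcripts of dividing cells changed sign, to 1.495 points at 2000 UMIs, 6.25 points without thinning and 0.247 points without RVVO 1, and lay between -2.08 and 0.247 points with 1 library left out. The cause of these changes was not tested. For single genes, 4639 values kept their side of the threshold, and those without a call lay within the SE of the main fold change. Their direction was not checked. Another 280 stayed without a call but moved by more than that SE, 96 gained and 49 lost a call. After thinning, 11040 genes passed the filter, against 13231.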
